A study of Homo sapiens with 2 samples.

Results

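The subunits of the respiratory chain and of ATP synthase were examined in ARP1-SRD5A1-KD cells by RNA-seq. The members were chosen by gene name: symbols of the NDUFA, NDUFB, NDUFC, NDUFS and NDUFV series for complex I, the 4 SDH genes for complex II, symbols beginning with UQCR for complex III, COX4 to COX8 for complex IV and ATP5 for complex V, together with the protein-coding genes of mitochondrial DNA. Pseudogene names and hyphenated read-through names were dropped, which left 100 of the 57485 genes listed and removed 31 matched names. Of the 100 genes, 87 are nuclear and 13 mitochondrial, with 45 in complex I, 4 in complex II, 10 in complex III, 20 in complex IV and 21 in complex V.

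ARP1 is a human multiple myeloma line, and in both groups the cells carried a lentiviral hairpin against SRD5A1 under a Dox-inducible promoter, so by titles and design the groups differ in Dox: 1 library was untreated and 1 was labelled as Dox-treated. The dose and duration of Dox for these libraries, and whether the infected cells were 1 clone or a pool, are not given in the sources used here. The comparison was designed to address how the transcriptome of myeloma cells changes when the hairpin is induced. No library of cells with Dox and without the hairpin was analysed, so effects of Dox and of the hairpin cannot be told apart.

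The respiratory chain passes electrons from NADH (complex I) or succinate (complex II) through coenzyme Q, complex III and cytochrome c to oxygen at complex IV, and the proton gradient that results drives ATP synthase, complex V. Mitochondrial DNA encodes some hydrophobic core subunits of complexes I, III, IV and V and none of complex II, and all other subunits are made from nuclear genes and imported, so that each of those complexes is built from the products of both genomes. Mitochondrial protein-coding transcripts are cut out of long transcripts that span nearly the whole molecule. As background, Dox belongs to the tetracyclines, which slow translation on mitochondrial ribosomes.

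The libraries held 45918570 expected counts without Dox and 48728927 with Dox, and 14859 genes reached at least 1 FPKM (fragments per kilobase of effective length, scaled to the size of the library) in at least 1 of them. The targeted gene, SRD5A1, was listed at 1375 counts and 13.04 FPKM without Dox and at 3014 counts and 25.88 FPKM with Dox. This log2 ratio of 0.98 goes against the label, and lower SRD5A1 RNA with Dox was not seen. The genotype entry of the second library names SRD5A2. For both reasons, directions below refer to the library labelled with Dox. All 9 plasma cell markers were present in both libraries, with summed levels of 7842 and 5820 FPKM. JCHAIN made most of this sum and was lower with Dox, at 5444 and 3515 FPKM. Also lower were SDC1 (345 and 237 FPKM), XBP1 (834 and 716) and MZB1 (528 and 408), and CD38 was level (26.62 and 26.61). TNFRSF17 (97.7 and 204 FPKM), SLAMF7 (15.7 and 41.8), IRF4 (410 and 514) and PRDM1 (141 and 158) were higher with Dox. Summed levels of B cell, T cell, myeloid and fibroblast markers were between 0.15 and 1.42 FPKM and those of epithelial markers 8.71 and 4.04 FPKM. With 1 library per condition no difference has a replicate check and no p-value is given. The 95% intervals of single genes cover counting error only. In bulk RNA, fewer cells with a transcript and less of it per cell cannot be told apart.

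Differences are given as log2 ratios of FPKM, with Dox over without, after adding 0.1 FPKM to each value. Of the 100 subunit genes, 92 reached 1 FPKM and each of these reached 10 FPKM in at least 1 library. The 8 others were COX4I2, COX6A2, COX8C, ATP5L2 and ATP5J2LP, each listed at 0 counts in both libraries, COX7A1 with 1 and 0 counts, COX6B2 with 7.86 and 6.1, and UQCRHL, a near copy of UQCRH with which it may share reads, with 0.91 and 17.16. COX4I2, COX6A2, COX7A1 and COX8C are isoforms known from lung, heart, skeletal muscle or testis, and ATP5J2LP is annotated as a pseudogene whose name the rule did not drop.

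Most subunits were somewhat lower in the library labelled with Dox. The log2 ratio was below 0 for 79 of 92 subunits (85.9%), beside 41.5% of all 14859 genes compared. The median over the 92 subunits was -0.30, with a middle range (lower to upper quartile) from -0.44 to -0.12, whereas all genes compared had a median of 0.15 and a middle range from -0.32 to 0.71. The subunits lay at lower values in a narrow group, with few of them far from its centre. Effective lengths differed by more than 10% between the libraries for 7 subunits (ATP5G1, NDUFA3, NDUFA5, NDUFS1, SDHC, SDHD and UQCRB). For 5 subunits near 0 (COX5A, NDUFA11, NDUFB1, NDUFV3 and SDHC) the sign was the other one by CPM, which is the count scaled to the library total without length.

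The ratio also moved with the level of the genes. Among the 1306 genes of at least 100 FPKM in at least 1 library the median was -0.17 and 62.8% lay below 0. The 52 nuclear subunits above that level had a median of -0.28, with 47 below 0. Across all genes compared, level and ratio had a Spearman correlation of -0.27, and across the 79 nuclear subunits 0.10, given here as a description over genes that share the same 2 libraries. The difference between the medians of nuclear subunits and of all genes was -0.44 over all levels and -0.11 over genes of at least 100 FPKM, and the part of the level in it was not tested further.

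Large differences were few. More than 2-fold higher with Dox was 1 of 92 subunits (1.09%), beside 17.0% of all genes and 7.35% of genes of at least 100 FPKM. More than 2-fold lower were 3 (3.26%), beside 6.41% and 8.88%. More than 1.5-fold higher were 2 (2.17%), beside 29.3% of all genes and 12.5% of genes of at least 100 FPKM. More than 1.5-fold lower were 15 (16.3%), beside 15.4% of all genes and 25.0% of genes of at least 100 FPKM, so this share was near or below the background. These 15 were NDUFB10, NDUFS5, NDUFB2, NDUFV2, NDUFS6, NDUFB7, UQCR10, UQCR11, UQCRC2, COX7B, COX7B2, ATP5D, ATP5G3, ATP5SL and MT-ND5, and the 2 higher ones were NDUFA4L2 and ATP5S. Only 65 of the subunits reached 100 FPKM themselves. Of these 65, 3 were more than 2-fold lower, 11 more than 1.5-fold lower and 0 higher by either fold. Scaling by TMM or DESeq2 factors gave 32 of 92 subunits more than 1.5-fold lower, a share above the 22.6% of all genes. It gave 1 higher, beside 22.3%. With these factors the share among genes of at least 100 FPKM was not computed. TPM gave 11 lower and 2 higher, beside 12.9% and 33.5%.

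**Figure D1:**
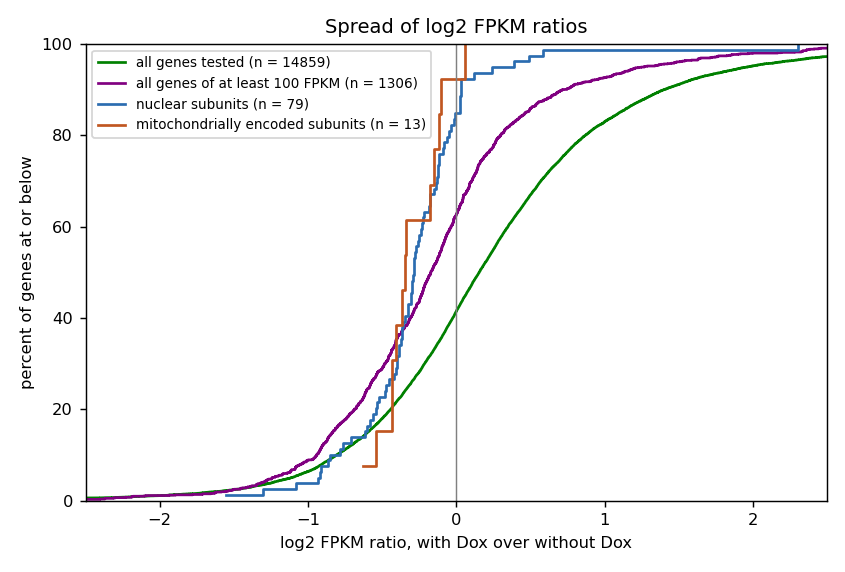
Cumulative percent of genes (vertical axis) at or below a log2 FPKM ratio with Dox over without (horizontal axis, cropped at both ends) for all genes compared, genes of at least 100 FPKM, nuclear subunits and mitochondrially encoded subunits. Both subunit curves rise steeply below 0 and reach 84.8% and 92.3% at 0, where the curve of all genes stands at 41.5% and that of highly expressed genes at 62.8%.

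Nuclear and mitochondrial subunits differed by little. The 79 nuclear subunits had a median of -0.29 (67 below 0) and the 13 mitochondrially encoded subunits one of -0.35 (12 below 0), a difference of -0.06 that is small beside the spread within either genome. By complex, the nuclear medians were -0.29 for complex I (38 genes), -0.25 for complex II (4), -0.34 for complex III (8), -0.18 for complex IV (12) and -0.31 for complex V (17). The middle range of complex I alone, from -0.51 to -0.09, held all of these medians. The mitochondrially encoded subunits had medians of -0.41 in complex I (7 genes), -0.35 in complex IV (3) and -0.39 in complex V (2), and the only one of complex III stood at -0.12. The order of the complexes is not separated from the variation among their members.

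**Figure D2:**
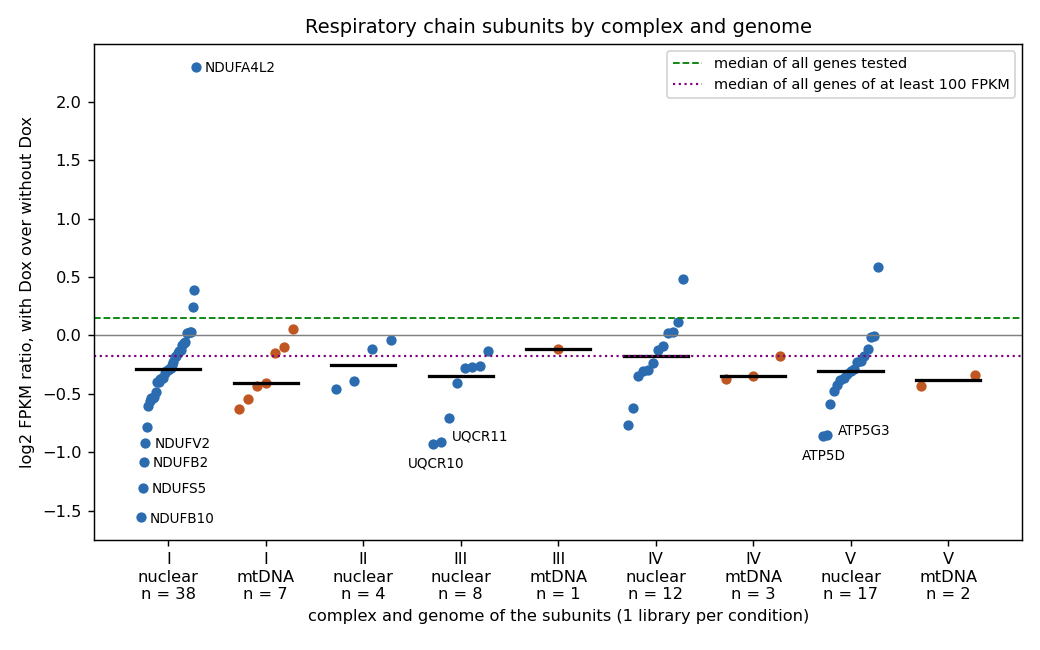
Log2 FPKM ratio with Dox over without (vertical axis) of each of the 92 subunits by complex and genome (horizontal axis; blue nuclear, orange mitochondrial DNA), 1 point per gene, sorted within a column, with the column median as a black bar. The medians lie between -0.41 and -0.12, below the median of all genes (dashed, 0.15). The median of genes of at least 100 FPKM (dotted, -0.17) lies between the columns of MT-CYB (-0.12) and nuclear complex IV (-0.18). NDUFA4L2, NDUFB10, NDUFS5 and NDUFB2 are the points past 2-fold.

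The part of the libraries taken by these genes was correspondingly lower. The 13 mitochondrial subunit genes took 5.64% of all counts without Dox and 4.53% with Dox. The nuclear subunit genes took 0.994% and 0.813%. The mitochondrial ribosomal RNAs took 0.587% and 0.522%. They lie upstream of the mitochondrial subunit genes other than MT-ND6 on the same long transcripts. They did not move as a pair: MT-RNR1 (12S) went from 1138 to 1348 FPKM (log2 ratio 0.24) and MT-RNR2 (16S) from 3847 to 3247 FPKM (-0.24). These rRNAs carry short tails, and the libraries were prepared from poly(A) RNA.

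Nuclear promoters of respiratory chain genes are a textbook case of shared control by NRF1, ETS-family factors such as GABP, and YY1, so the letters of these motifs were sought between 250 bases before and 50 bases after the start of each gene in the RefSeq promoters of GRCh38.p14, on both strands. A promoter was matched for 64 of the 79 nuclear subunits compared. The NRF1 letters (GCGCA, then any base N, then GCGC) were found in 15 of 64 (23.4%), beside 6.98% of 27305 promoters and 14.1% of the 8972 promoters of genes compared here. The ETS letters CCGGAAGT were found in 11 (17.2%, beside 4.95% and 10.8%), and the YY1 letters AAGATGGC in 12 (18.8%, beside 3.52% and 7.09%). Of the subunits matched, 31 held at least 1 of the 3 and 7 more than 1, and no matches of different motifs overlapped. Windows around a match are shown for the pair of complex III subunits that were lowest with Dox and for a subunit each of complexes II and V that hardly differed, printed on the strand of the gene with the match in capitals (the match in UQCR11 is on the opposite strand, so its capitals are the reverse complement of the letters above):
UQCR10: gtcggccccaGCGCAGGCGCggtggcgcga
UQCR11: ccctccccgcGCGCGTGCGCgccgcggccg
SDHA: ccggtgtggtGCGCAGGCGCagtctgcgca
ATP5C1: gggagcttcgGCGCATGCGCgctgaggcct
These windows lie at chr22:29767351-29767380 (+), chr19:1605472-1605501 (-), chr5:218291-218320 (+) and chr10:7788145-7788174 (+), with the capitals beginning 8, 29, 19 and 22 bases before the start of the gene. SDHA held these letters at 4 places in its promoter. The log2 FPKM ratios of the 4 genes were -0.93, -0.91, -0.04 and -0.02. The median ratio was -0.28 for the 15 subunits with the NRF1 letters and -0.30 for the 49 without, so the medians differed by little. For the ETS letters the medians were -0.25 with and -0.30 without, and for the YY1 letters -0.22 and -0.30.

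Complex I oxidises NADH, and its catalytic core is made of 7 nuclear subunits that carry FMN and iron-sulfur clusters and 7 mitochondrially encoded subunits that form the proton-pumping arm. All 7 nuclear core subunits were below 0, beside 41.5% of all genes and 62.8% of genes of at least 100 FPKM. Their median was -0.30. NDUFV2, an iron-sulfur subunit of the NADH-binding module, went from 320.78 to 169.82 FPKM (log2 ratio -0.92, 95% interval -0.97 to -0.87). Its partner NDUFV1, which holds the FMN and the NADH site, went from 245.62 to 199.22 FPKM (-0.30), and NDUFS1, the largest subunit of this module, from 45.94 to 38.6 FPKM (-0.25). NDUFV2 was below these 2 partners by more than their counting intervals. In the quinone-reducing module NDUFS3 went from 107.12 to 73.65 FPKM (-0.54), NDUFS8 from 93.43 to 72.57 (-0.36) and NDUFS7 from 115.5 to 105.87 (-0.13). These 3 lay on both sides of the median of the core subunits.

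The accessory subunits of complex I, which surround the core and are needed to build or stabilise it, held the 3 subunits more than 2-fold lower. The 31 compared under complex I names had a median of -0.29. Of them, 24 were below 0, beside 41.5% of all genes, and 7 were above 0. NDUFB10, a membrane-arm subunit on the intermembrane-space side (ENSG00000140990.14; GRCh38 chromosome 16, 1959508 to 1961975, forward strand), had 3442 counts and 196.15 FPKM without Dox and 1346 counts and 66.64 FPKM with Dox. It was 2.94-fold lower, a log2 ratio of -1.56 (95% interval -1.65 to -1.47). NDUFS5 (ENSG00000168653.10; chromosome 1, 39026318 to 39034636, forward strand), a small subunit of the same face with cysteine motifs of the kind imported by the CHCHD4 relay, went from 7109 to 3023 counts and from 510.86 to 206.65 FPKM, which is 2.47-fold lower (-1.31, interval -1.37 to -1.24). NDUFB2 (ENSG00000090266.12; chromosome 7, 140690777 to 140722790, forward strand), a small membrane-arm subunit, went from 1444 to 714 counts and from 119.81 to 56.64 FPKM, 2.11-fold lower (-1.08, interval -1.21 to -0.95).

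A similar fold was not shared by the other subunits of the membrane arm. NDUFB7, which like NDUFB10 lies on the intermembrane-space side, went from 217.78 to 143.09 FPKM (-0.61). NDUFB8 went from 342.67 to 323.75 FPKM (-0.08) and NDUFB9 from 337.88 to 304.65 (-0.15). NDUFB5 was the highest of this series, at 73.41 and 96.2 FPKM (0.39, interval 0.32 to 0.46). Among the NDUFB symbols the ratios ran from -1.56 to 0.39 around a median of -0.18. Of the accessory subunits of the peripheral arm, NDUFS6, a zinc-binding subunit that joins late in assembly, went from 77.58 to 45.0 FPKM (-0.78), and NDUFS4 of the same module from 69.26 to 62.95 (-0.14). NDUFA5, of the quinone module, was listed at 51.51 and 60.96 FPKM (0.24), but its assigned effective length differed by more than 10% between the libraries and its ratio of CPM was 0.06. NDUFAB1, the acyl carrier protein that is part of complex I although its name falls outside the rule, went from 149.61 to 86.86 FPKM (-0.78).

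The highest ratio of all members was that of NDUFA4L2, a paralogue of NDUFA4 known as a hypoxia-inducible gene (ENSG00000185633.10; chromosome 12, 57234903 to 57240715, reverse strand). It had 111 counts and 2.62 FPKM without Dox and 548 counts and 13.3 FPKM with Dox, a 4.93-fold difference (log2 ratio 2.30, interval 2.05 to 2.65). NDUFA4 itself, which carries a complex I name but is now counted as a subunit of complex IV, went the other way, from 71.41 to 56.95 FPKM (-0.33). NDUFA4L2 thus made up 3.54% of the FPKM of the pair without Dox and 18.9% with Dox, while their sum was 74.03 and 70.25 FPKM. It remained the scarcer of the pair in both libraries.

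**Figure D3:**
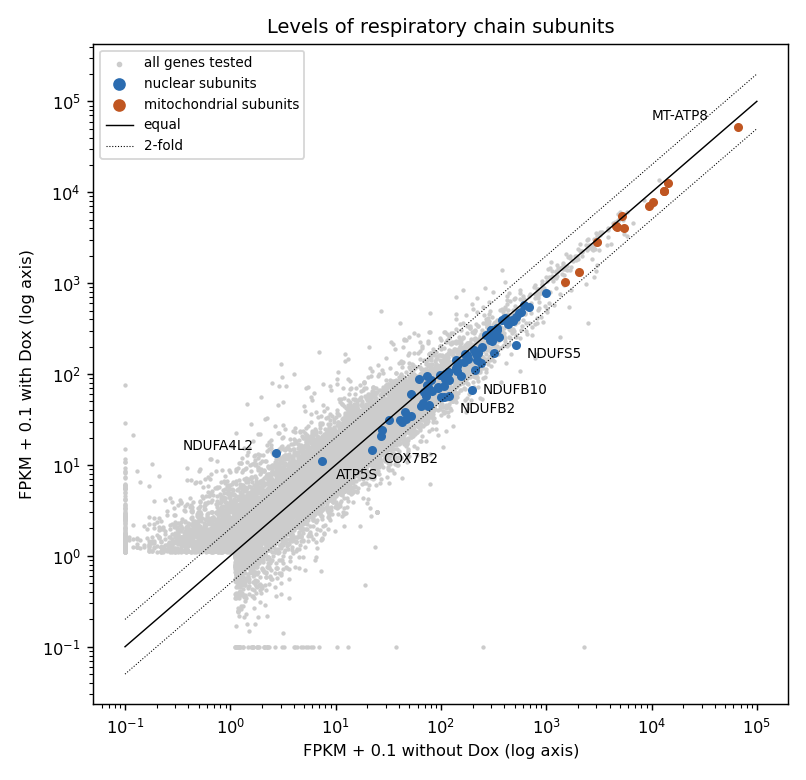
FPKM + 0.1 of each gene without Dox (horizontal log axis) and with Dox (vertical log axis), with all 14859 genes compared in grey, nuclear subunits in blue and mitochondrial subunits in orange. The solid line marks equal levels and the dotted lines 2-fold, and most subunits lie just under the solid line, with NDUFA4L2 above the upper dotted line.

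Complex II, succinate dehydrogenase, joins the citric acid cycle to the chain and is wholly nuclear-encoded. SDHB, the iron-sulfur subunit (ENSG00000117118.9; chromosome 1, 17018722 to 17054170, reverse strand), went from 118.04 to 85.92 FPKM (log2 ratio -0.46, interval -0.53 to -0.39). SDHD, a membrane anchor, went from 140.51 to 107.38 FPKM (-0.39). SDHC, the other anchor, was listed at 108.71 and 100.31 FPKM (-0.12), and SDHA, the flavoprotein that holds the succinate site, at 98.69 and 96.31 FPKM (-0.04, interval -0.08 to 0.01). The 4 genes thus stood at close levels without Dox, and SDHB and SDHD were lower with Dox while SDHA lay within counting error of no difference. Effective lengths moved with the values of this complex: they differed by more than 10% for SDHC and SDHD, and by CPM SDHC was at 0.19 and the median of the 4 at -0.11 instead of -0.25. By TPM SDHA lay above 0.

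In complex III all 8 nuclear subunits compared were below 0, beside 41.5% of all genes and 62.8% of genes of at least 100 FPKM. UQCR10 and UQCR11, small subunits at the edge of the complex whose promoter windows are printed above, were lowest. UQCR10 (ENSG00000184076.13; chromosome 22, 29767369 to 29770413, forward strand) went from 211.25 to 110.8 FPKM (-0.93, interval -0.99 to -0.87), and UQCR11 (ENSG00000127540.11; chromosome 19, 1597172 to 1605490, reverse strand) from 106.19 to 56.39 FPKM (-0.91, interval -0.98 to -0.85). The larger core proteins differed from each other: UQCRC2 went from 155.64 to 95.13 FPKM (-0.71) and UQCRC1 from 140.24 to 115.23 (-0.28). Between these lay nuclear-encoded redox subunits, with UQCRFS1, the Rieske iron-sulfur protein, at 41.14 and 31.05 FPKM (-0.41) and CYC1, cytochrome c1, which the naming rule does not take, at 107.4 and 76.44 FPKM (-0.49). UQCRH, the hinge protein, had the highest level of the nuclear subunits at 476.36 and 394.96 FPKM (-0.27), and UQCRB and UQCRQ, which flank the core, stood at -0.26 and -0.13. Of the 15 subunits more than 1.5-fold lower, 3 belonged to the 8 of this complex. The shares past that fold were 15.4% of all genes and 25.0% of genes of at least 100 FPKM.

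Complex IV, cytochrome c oxidase, had a nuclear median of -0.18, or -0.24 with NDUFA4 placed in this complex. By FPKM it was the nearest to 0 of the complexes, and by CPM, at -0.19, it was farther from 0 than complex II. COX4I1 and COX5A, which join the complex early around MT-CO1, were almost level: COX4I1 was at 609.68 and 572.66 FPKM (-0.09) and COX5A at 300.94 and 305.99 (0.02). COX5B, which binds zinc, was at 115.45 and 105.94 FPKM (-0.12). COX6C stood at 0.03 and turned below 0 with TMM or DESeq2 factors, as did COX5A. COX6A1, COX6B1, COX7C and COX8A, the ubiquitous forms of small subunits, lay between -0.35 and -0.24, with levels from 295.82 to 572.59 FPKM without Dox.

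The COX7 subunits ran from -0.77 to 0.49. COX7B went from 74.79 to 43.88 FPKM (-0.77, interval -0.83 to -0.71), and its paralogue COX7B2, known mainly from testis, from 22.27 to 14.46 FPKM (-0.62, interval -0.88 to -0.36). COX7B2 thus made up 22.9% of the FPKM of the pair without Dox and 24.8% with Dox. In the COX7A family the direction was the opposite: COX7A2L was at 62.33 and 87.3 FPKM (0.49, interval 0.41 to 0.56) and COX7A2 at 80.18 and 86.97 (0.12), while COX7A1, the muscle form, was at or near 0. COX7A2L, also called SCAF1, tethers complex III to complex IV in supercomplexes and is not a regular subunit of single complex IV. The value of COX7A2 turned below 0 with TMM or DESeq2 factors and was 0.01 by CPM, whereas that of COX7A2L was 0.47.

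In ATP synthase, the F1 head holds the catalytic sites and is turned by a ring of c subunits in the membrane. Of the 5 F1 genes, ATP5A1 (alpha) went from 546.93 to 468.06 FPKM (-0.22), ATP5B (beta, the catalytic subunit) from 678.68 to 540.47 (-0.33) and ATP5C1 (gamma, the rotating shaft) from 268.75 to 265.59 (-0.02). The foot of the shaft differed from the shaft: ATP5D (delta; ENSG00000099624.7; chromosome 19, 1241746 to 1244826, forward strand) went from 100.61 to 55.26 FPKM (-0.86, interval -0.96 to -0.77), and ATP5E (epsilon) from 26.87 to 20.55 FPKM (-0.39). The F1 median was -0.33.

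The c subunit is made from 3 genes that encode the same mature protein behind different import signals. ATP5G3 went from 240.98 to 133.5 FPKM (-0.85, interval -0.90 to -0.80), ATP5G1 from 354.61 to 255.46 (-0.47), and ATP5G2 from 422.31 to 390.01 (-0.12). Their sum went from 1018 to 779 FPKM (-0.39), and the share of ATP5G2 in it from 41.5% to 50.1%, while that of ATP5G3 went from 23.7% to 17.1%. The lower level of c subunit RNA was uneven over its genes. The effective length of ATP5G1 differed by more than 10% between libraries, and its ratio of CPM was -0.64.

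Subunits of the stalk and other small membrane subunits lay between -0.42 and -0.01. ATP5F1, ATP5H, ATP5J and ATP5O of the peripheral stalk stood at -0.31, -0.18, -0.42 and -0.22. ATP5J2, the f subunit, had the highest level of the nuclear subunits, with 1002 and 777.43 FPKM on an effective length of 162 bases (-0.37), while ATP5L, the g subunit, was level at 168.03 and 166.95 FPKM (-0.01). USMG5 and C14orf2, small membrane subunits under other names, stood at -0.22 and -0.09. ATP5SL and ATP5S carry the ATP5 prefix but are not subunits of the enzyme proper: ATP5SL, now named DMAC2 and known from complex I assembly, went from 52.06 to 34.66 FPKM (-0.59), and ATP5S, named as a coupling factor, from 7.25 to 10.93 FPKM (0.59, interval 0.46 to 0.73). ATPIF1, the inhibitor that binds F1 and blocks ATP hydrolysis, is no subunit taken by the rule and was at 26.69 FPKM without Dox and 48.05 FPKM with Dox (0.85), above every subunit of complex V.

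The mitochondrially encoded subunits were among the most abundant RNAs of the libraries. MT-CO1, the catalytic subunit of complex IV, had 780793 and 649637 counts, 30.1% and 29.4% of the counts of the 13 genes. Its FPKM values were 13090 and 10284 (log2 ratio -0.35). MT-CO2, which takes electrons from cytochrome c, was at 13270 and 10271 FPKM (-0.37) and MT-CO3 at 14192 and 12543 (-0.18). MT-CYB, cytochrome b of complex III, was at 4613 and 4259 FPKM (-0.12). In ATP synthase MT-ATP6, the channel subunit next to the c ring, was at 9544 and 7078 FPKM (-0.43).

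The level listed for MT-ATP8 rests on its length. It was listed at 66065 and 52226 FPKM (-0.34), which is 7.25% and 6.13% of the FPKM of all genes, from an effective length of 9.83 and 9.25 bases for a gene of 207 bases. Per kilobase of full length it had 3137 and 2335 CPM, below MT-CO1 with 11027 and 8646. MT-ATP8 (mitochondrial position 8366 to 8572) also overlaps MT-ATP6 (8527 to 9207), as MT-ND4L (10470 to 10766) overlaps MT-ND4 (10760 to 12137), so reads in the overlaps could be split either way by the counting.

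The complex I subunits of mitochondrial DNA spanned the whole range of the 13 genes. MT-ND5 was lowest, with 148957 and 101822 counts and 2067 and 1334 FPKM (-0.63, interval -0.64 to -0.62), and was the 1 mitochondrial subunit more than 1.5-fold lower. MT-ND6 was at 1509 and 1035 FPKM (-0.54), MT-ND4 at 5444 and 4024 (-0.44) and MT-ND4L at 10363 and 7811 (-0.41). MT-ND2 was at 4646 and 4181 FPKM (-0.15), MT-ND1 at 3039 and 2832 (-0.10) and MT-ND3 at 5203 and 5417 (0.06, interval 0.03 to 0.08), the last of which turned below 0 with TMM or DESeq2 factors. These intervals are narrow because the counts are large, and they say nothing of how far another culture would differ.

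Along the mitochondrial DNA the ratios were arranged in stretches. MT-ND1 and MT-ND2, nearest the rRNAs, were close to 0, MT-CO1 to MT-ATP6 lay between -0.43 and -0.34, MT-CO3 and MT-ND3 were higher again, and MT-ND4L to MT-ND6, the 4 that precede MT-CYB, lay between -0.63 and -0.41. MT-CYB, the last, stood at -0.12. MT-ND6 is the only subunit read from the light strand, and since strand is not stated for the counting, its reads cannot be told apart from those of the opposite strand.

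**Figure D4:**
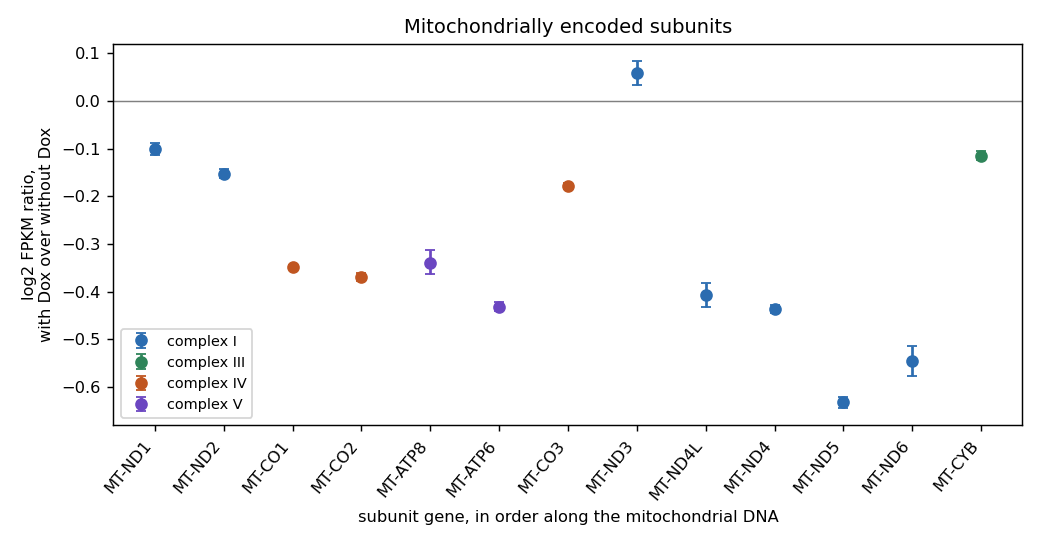
Log2 FPKM ratio with Dox over without (vertical axis) of the 13 mitochondrially encoded subunits in their order along mitochondrial DNA (horizontal axis), coloured by complex, with 95% counting intervals as bars. MT-ND4L to MT-ND6 form the lowest stretch, between -0.63 and -0.41, and MT-ND3 is the only point above 0, at 0.06.

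Genes that serve the chain were examined from lists compiled by function, 98 genes in all. The lists also held the subunits NDUFAB1 and CYC1 and the mitochondrial rRNAs. The 98 genes had a median of -0.17, and 3 lay past 2-fold above and 9 below, beside 17.0% and 6.41% of all genes. Of 47 assembly factors for the 5 complexes, the median was -0.13, and 5 were higher and 11 lower by more than 1.5-fold, beside 29.3% and 15.4% of all genes. Past 2-fold were NDUFAF1 and SCO2, both lower, and SDHAF4 of complex II, which was higher at 2.17 and 4.73 FPKM and is named after its value was seen. Of the 15 for complex I, 0 were past 1.5-fold higher and 6 past 1.5-fold lower, around a median of -0.21. NDUFAF1, an early factor for the membrane arm, went from 32.28 to 15.93 FPKM (-1.01), NDUFAF3, which acts on the quinone module, from 40.86 to 20.74 (-0.97), and NDUFAF5, which modifies NDUFS7, from 11.35 to 5.94 (-0.92). The 20 factors of complex IV went both ways, 4 more than 1.5-fold higher and 3 lower around a median of -0.02. SCO2, a copper chaperone for MT-CO2, went from 24.13 to 10.47 FPKM (-1.20), whereas SURF1, for an early step around MT-CO1, was at 11.21 and 18.19 FPKM (0.69) and COX19, which helps deliver copper, at 7.86 and 14.19 (0.84).

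The 5 factors of complex III had a median of -0.36, with UQCC2, which serves cytochrome b, at 44.97 and 28.73 FPKM (-0.64) and BCS1L, which inserts the Rieske protein, at 65.77 and 42.37 (-0.63). The 4 factors of complex II had a median of -0.02 and the 3 of complex V one of -0.22, in which ATPAF2, the chaperone of ATP5A1, was at -0.51 and ATPAF1, that of ATP5B, at 0.26. Of 13 genes for cytochrome c and coenzyme Q, the median was 0.03. Past 2-fold were 1 higher and 2 lower, beside 17.0% and 6.41% of all genes. PDSS1, which makes the isoprenoid tail of coenzyme Q, went from 36.22 to 11.91 FPKM (-1.60), COQ7, a hydroxylase of its ring, was at 8.25 and 17.29 FPKM (1.06), and COQ10A was at 5.98 and 2.85 (-1.04). Coenzyme Q genes differed in both directions.

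The genes that transcribe or copy mitochondrial DNA, or process or degrade its RNA, were mostly lower. Of 12 for transcription and copying of mitochondrial DNA, 10 were below 0, beside 41.5% of all genes, and the median was -0.31. POLRMT and POLG were lower and MGME1 higher by over 1.5-fold, beside 15.4% and 29.3% of all genes, so the lower share was near the background. POLRMT, the mitochondrial RNA polymerase, went from 38.82 to 22.89 FPKM (-0.76), and POLG, the DNA polymerase, from 41.22 to 24.5 (-0.75), while MGME1, a nuclease of mitochondrial DNA upkeep, was at 11.84 and 20.0 (0.75). The median of 13 genes for mitochondrial RNA processing and decay was -0.53, with 12 below 0, beside 41.5% of all genes. Past 2-fold lower were 3 of them, beside 6.41% of all genes, and none was past 1.5-fold higher, beside 29.3%. FASTKD1 went from 27.14 to 10.86 FPKM (-1.31), TRMT10C, a subunit of the mitochondrial RNase P, from 51.67 to 21.37 (-1.27), and TBRG4 (FASTKD4), which stabilises a set of mitochondrial mRNAs, from 127.32 to 61.02 (-1.06). This list had the lowest median of those with more than 2 genes, below that of either genome's subunits.

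The 9 nuclear regulators went both ways, with 3 more than 1.5-fold higher, 2 lower and a median of 0.22. These counts were near the shares of all genes, 29.3% and 15.4%. PPARGC1B and PPRC1, coactivators of the PGC-1 family, went from 8.6 to 3.99 FPKM (-1.09) and from 48.93 to 23.3 FPKM (-1.07). GABPB1, a subunit of the ETS factor GABP, was at 17.18 and 30.14 FPKM (0.81). NRF1 was at 10.82 and 11.22 FPKM (0.05). PPARGC1A, the best known of the coactivators, was at 0.59 and 2.35 FPKM from 104 and 434 counts (1.83), below the level set for naming genes and given here for its family. It passed the filter on low values through the library labelled with Dox.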

How the data were processed

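Total RNA of ARP1-SRD5A1-KD cells was enriched for poly(A) mRNA, and 150 bases were sequenced from both ends of each fragment. The authors deposited expected counts per gene, which share out reads that match several transcripts and need not be whole, FPKM, which divide these counts by effective length and library size, and TPM, which scale to a fixed sum. The submitters' processing notes name HISAT2 2.1.0, StringTie 1.3.4d, Bowtie 0.12.2 and hg19, without roles. The tables' symbols are older names, and 202888 of 204675 listed transcripts were found in GENCODE release 29, whose GRCh38 coordinates are printed here. The annotation columns were not used.

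Log2 ratios of FPKM were computed with a pseudocount of 0.1 over the genes that reached 1 FPKM in either library, and were counted past 2-fold and 1.5-fold. The study used edgeR, which cannot estimate dispersion from 1 library per group, so no test was run. Exact binomial (Clopper-Pearson) 95% intervals were computed from the counts of each gene. With 45918570 and 48728927 counts, 3 counts equal 0.065 and 0.062 CPM. MT-ATP6 and MT-ATP8 end in P and a digit, as pseudogene names do, and were kept. Genes named were the 13 mitochondrial subunits, the SDH genes, core subunits, isoform families, ATPIF1 (all under the tables' symbols), the 3 highest and 3 lowest ratios per complex and the 3 largest of each other list from 5 FPKM, and genes that explain a module or a family. The values of 1 core subunit are not reported here. Members and lists were chosen with earlier results of these data known. Steps were tested on simulated data with counting error only and equal effective lengths in both libraries. Such data cannot show how the steps fare with differences between cultures or in effective length. Alternatives covered the pseudocount, filter, scaling (TMM by edgeR 4.0.16, DESeq2 1.42.0, TPM, CPM), pseudogene counts and the reading of the rule. Python 3.11.15, pandas 2.3.3, numpy 2.4.6, scipy 1.17.1, matplotlib 3.10.9 and R 4.3.3 were used.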

Additional observations from a re-analysis of the deposited data

How the results depend on the processing

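No paired analysis was possible because each condition has a single library, and for the same reason no library could be left out and no value has a replicate error. Of 168 medians and counts recomputed under 14 alternatives, 125 stayed the same, 43 moved and no median turned direction. A median was called the same within the half-width of the counting interval of the single gene nearest to it, which is no error of the median. For the difference of medians the sum of 2 such half-widths was taken. A count was called the same within 1.5 times its value and could not turn direction. The filter at 10 FPKM could change no subunit value, and regrouping or dropping a few members left most values untouched. The number that stayed was thus partly fixed by the choice of alternatives. The alternatives by CPM, by a level of at least 100 FPKM and without ATP5S, ATP5SL and COX7A2L were chosen after seeing the data. A level of at least 100 FPKM moved the median of all genes from 0.15 to -0.17, and the nuclear median minus it from -0.44 to -0.11. TMM and DESeq2 factors moved it to -0.05 and TPM to 0.25, with that difference at -0.44 in each. With TMM or DESeq2 factors the medians were -0.50, -0.46, -0.55, -0.39 and -0.51 for nuclear complexes I to V, -0.49 for all nuclear and -0.56 for mitochondrial subunits, with 8 subunits more than 2-fold lower (beside 10.3% of all genes) and 32 lower and 1 higher past 1.5-fold (beside 22.6% and 22.3%). With TPM they were -0.19, -0.16, -0.25, -0.083, -0.21, -0.19 and -0.25, with 2 subunits past 2-fold lower (beside 5.26%) and 11 past 1.5-fold lower (beside 12.9%). CPM gave -0.11 for complex II (-0.13 with pseudogene counts added) and -0.38 for mitochondrial subunits. Library totals without mitochondrial genes gave -0.37 for the latter and 1 subunit past 1.5-fold higher (beside 28.7% of all genes). A pseudocount of 1 FPKM also gave 1 past 1.5-fold higher (beside 24.8%). With no filter, complex III was at -0.28 and 2 subunits were past 2-fold higher (beside 16.8%). At 100 FPKM or more, complex II was at -0.39 and complex III at -0.28, and 0 subunits were past 2-fold or 1.5-fold higher (beside 7.35% and 12.5%). Complex IV was at -0.24 with NDUFA4 or without COX7A2L, and leaving out ATP5S, ATP5SL and COX7A2L left 1 subunit past 1.5-fold higher (beside 29.3%). The subunits below 0 numbered 72 by TPM, 80 by CPM and 87 by TMM or DESeq2 factors, of 92, beside 36.0%, 40.4% and 52.6% of all genes. Of 1265 other values of 94 single genes, 331 moved and 0 of the called ones turned direction. The cause of the moves was not tested.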

Other observations

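Among the 31 matched names that were dropped, 29 are pseudogene names, the highest of which was NDUFV2P1 with 11.96 counts without Dox and 15.24 with Dox. The 2 others are read-through genes that share exons with members: ATP5J2-PTCD1 had 1134 and 544 counts, and NDUFC2-KCTD14 had 220 and 165 counts. How the counting shared out reads of those exons was not tested.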
